A study of Salmo salar with 79 samples.

Results

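Interferons are secreted proteins that put cells into an antiviral state. Viral RNA in the cytoplasm is bound by helicases of the RIG-I family, interferon is released, and its receptors pass the signal on through Janus kinases to a large set of target genes, among them the Mx GTPases, viperin and the fish-specific Gig proteins. The same genes are carried by salmon and are commonly read as a sign of an interferon response in skin, gill and internal organs. The 38 probes described here carry an immune annotation that names a virus or interferon in the supplementary list of the study, which holds 771 identifiers found on an oligonucleotide array of 14841 Atlantic salmon probes. The CXCL10 probe with such an annotation was left out. They fall into 3 sensors (RIG-I, RIG-I-2 and DHX58), 2 signalling proteins (Jak1 and Ras-related GTP binding C), 28 genes of antiviral or virus-induced function and 5 others (gelsolin, Mucin 5AC, 2 probes for barrier-to-autointegration factor, called BAF A and BAF B here, and 1 probe with no named product).

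The list was made by the study from differences between high fish density (HFD) and control density, beyond 0.8 on the log2 scale with p under 0.05 on at least 1 day, so every difference between densities given below is a description without a test. In the values used here all 38 probes also met both criteria on at least 1 day. Just inside the limit were Galectin-9 with a difference of 0.87, VHSV-induced protein with 0.88 and VHSV-induced protein-1 with 0.89, all at 3 days post wounding (dpw). The list holds differing genes alone, so that the annotation of array probes outside the limit is not known here. The comparison of wounds with intact skin takes the mean of both densities and played no part in that choice.

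Skin was taken from Atlantic salmon post-smolts kept in seawater at HFD (100 kg/m3) or at control density (20 kg/m3). These are the densities at stocking. The paper states that biomass was not adjusted, so that density rose in the HFD tank and fell in the control tank. Wounds were made with a biopsy punch, and skin with the wound in it was sampled from 5 HFD fish and 5 control fish per day. The days were 1, 3, 7 and 14 dpw, and later 36, 43 and 57 dpw. The paper states that RNA was extracted from a part of the wound. Intact skin came from 4 HFD and 4 control fish and was taken before wounding. The series holds no intact skin of a later day. Wound and time in the tank therefore cannot be told apart in a comparison with intact skin. Each density was a single tank, so tank and density cannot be told apart, and fish were killed at each sampling, so that the same number on different days is not the same fish. In such bulk samples, fewer cells of a type and less RNA per cell cannot be told apart.

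The series had 79 arrays of 78 fish, on 10 slides. A control fish at 57 dpw was measured on 2 arrays, which were averaged. The share of probes well above background ran from 60.1% to 94.5% between arrays. Values are given as the log2 of the background-corrected signal minus the 75th percentile of the array, called the scaled signal below, and 0 is therefore a probe at that percentile. A level of one probe cannot be set against that of another. The arrays of intact skin and of 1 to 14 dpw shared slides in part, whereas those of 36 to 57 dpw lay on 4 other slides, so that late days and slides cannot be told apart in a comparison with intact skin. Within a density no slide held both intact skin and wounds of 3 or 7 dpw. HFD and control intact skin lay on separate slides.

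As the mean of both densities, most members were close to their level in intact skin during the first days. They stood above it at 7 and 14 dpw and remained partly above it until 57 dpw. At 1 dpw 5 of the 38 members differed from intact skin (4 higher, 1 lower) by limma with a Benjamini-Hochberg adjusted p under 0.05, while 56.2% of all probes tested did so and 20.4% were higher. At 3 dpw 10 members differed, 5 in each direction, against 66.3% of all probes, with 25.9% higher and 40.4% lower. At 7 dpw 25 members were higher and 1 was lower, where 61.8% of all probes differed and 24.4% were higher. At 14 dpw all 35 members that differed were higher, against 24.3% of all probes higher and 60.3% in either direction. The counts fell off later, with 9 higher and 1 lower at 36 dpw, 15 and 1 at 43 dpw, and 17 and 1 at 57 dpw. Over all probes 59.3%, 53.2% and 54.7% differed on these days, and 21.8%, 18.8% and 19.8% were higher. Thus the share of members higher was below that of all probes at 1 and 3 dpw and above it from 7 dpw, with little distance between both shares at 36 dpw. All 7 comparisons share the same 8 intact fish.

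The median log2 difference of the members from intact skin was 0.36 and 0.14 on the days of 1 and 3 dpw. The wounds of 7 and 14 dpw had medians of 1.06 and 1.17, those of 36, 43 and 57 dpw had 0.54, 0.66 and 0.59. The median over all tested probes lay between -0.25 and -0.15 on every day. Of the 38 members 29, 25, 37, 37, 32, 33 and 33 were above 0 on these days in turn. With the slide as a block, 2, 4, 9 and 3 members passed the test at 1, 3, 7 and 14 dpw, where 33%, 56.4%, 50.2% and 35.1% of all probes did. The 9 and 3 members of 7 and 14 dpw were all higher, against 19.8% and 13.8% of all probes, so that in this fit the share of members higher was just above that of all probes at 7 dpw and below it at 14 dpw. The median differences with the block were 0.46, -0.072, 0.84 and 1.09. Within single slides that held both wounds and intact skin the median of the members was 0.85, 1.38 and 0.26 at 7 dpw and 1.25, 1.43 and 0.27 at 14 dpw, with 2 wounds and 2 intact samples, in part of different density, on each slide. At 3 dpw it was 0.09 and 1.13 on slides with HFD wounds and control intact skin and -0.84 on a slide with control wounds and HFD intact skin. Without control intact fish 6, which had high values, 9 members passed at 1 dpw (54.1% of all probes) and 17 at 36 dpw (56.9%). The count at 1 dpw was 8 without HFD intact fish 1 (54.7%) or without HFD intact fish 4 (53.9%). The count at 3 dpw was 6 without control fish 3 of that day (64.2%). The count at 36 dpw was 6 without HFD intact fish 2 (56.3%) or without control intact fish 8 (55.8%).

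**Figure D1:**
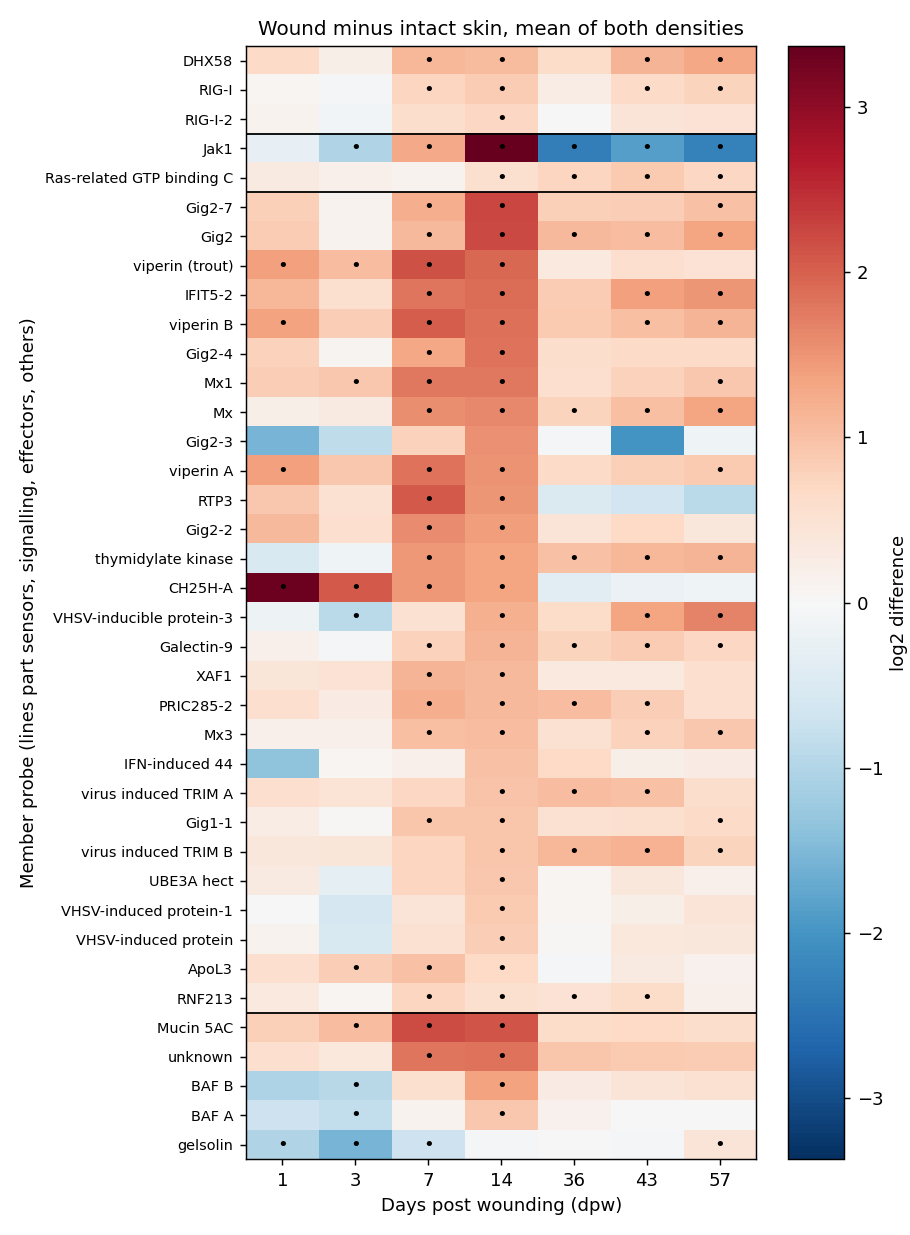
Log2 difference of wounds minus intact skin for each of the 38 members (rows, in role groups) on 7 sampling days from 1 to 57 dpw (columns), as the mean of both densities, with dots for members that passed the test. The columns of 7 and 14 dpw, with medians of 1.06 and 1.17, hold 37 members above 0 each, and Jak1 stands apart with 3.37 at 14 dpw and -2.32 at 36 dpw.

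The 3 sensors were higher than in intact skin at 14 dpw, and none of them passed at 1, 3 or 36 dpw. RIG-I and RIG-I-2 carry the name of the helicase that detects viral RNA, and DHX58, also known as LGP2, is a helicase of the same family that lacks the signalling domains. The scaled signal of RIG-I at 7 dpw was 0.60, 0.90, 0.43, 0.57 and 0.55 in HFD wounds and 1.58, 0.30, 0.71, -0.09 and 0.87 in control wounds, against 0.77, -0.99, -0.01 and 0.02 in HFD intact skin and -0.65, 0.68, -0.01 and -0.45 in control intact skin. The intact fish therefore overlapped with the wounds, and the difference of 0.72 (SE 0.25) passed the test (limma, adjusted p = 0.0185). RIG-I was also higher at 14, 43 and 57 dpw, by 0.85, 0.65 and 0.75. DHX58 was higher on the same 4 days, by 1.11, 1.07, 1.13 and 1.29, and at 57 dpw its adjusted p was 0.00118 (limma). In DHX58 the difference at 57 dpw was thus no smaller than that at 7 dpw. RIG-I-2 passed at 14 dpw alone, with 0.70 (SE 0.26, limma adjusted p = 0.0275), and had 0.59 at 7 dpw with an adjusted p of 0.0556 (limma). The differences of the sensors lay between -0.10 and 0.64 at 1 and 3 dpw and between 0.012 and 0.62 at 36 dpw.

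The signalling probes followed courses of their own. Jak1 is a kinase bound to the interferon receptors and to several cytokine receptors. At 14 dpw its scaled signal was 4.43, 4.91, 3.02, 5.00 and 4.28 in HFD wounds and 2.30, 3.52, 4.60, 4.52 and 4.54 in control wounds. In intact skin it was 0.02, 0.03, 2.41 and 1.76 in HFD fish and 1.10, -0.48, 0.75 and 0.35 in control fish. Only the lowest wound reached into the range of intact skin, and the difference was 3.37 (SE 0.41, limma adjusted p = 4.44e-06), the largest of any member on that day. At 3 dpw Jak1 was instead lower than in intact skin, by 1.02 (SE 0.34, limma adjusted p = 0.0144), with -0.44, -0.59, -0.79, -0.53 and -1.05 in HFD wounds and -0.17, 0.42, -0.47, 1.28 and -0.41 in control wounds. At 36 dpw every wound, between -1.70 and -0.79 in HFD fish and between -2.27 and -1.04 in control fish, lay below every intact sample. The differences of the late days were -2.32, -1.86 and -2.29. Jak1 thus changed sign against intact skin between 3 and 7 dpw and again between 14 and 36 dpw, and passed the test at all 6 days from 3 dpw. Ras-related GTP binding C belongs to the Rag GTPases, which in mammals link amino acids to mTOR. It was higher at 14, 36, 43 and 57 dpw, by 0.55, 0.74, 0.87 and 0.71, and its differences at 1, 3 and 7 dpw lay between 0.12 and 0.29 without passing.

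The Mx GTPases, which block the replication of RNA viruses, were represented by 3 probes. At 7 dpw the probe named Mx had a scaled signal of 3.24, 3.77, 3.36, 3.28 and 3.40 in HFD wounds and 4.56, 3.22, 3.82, 2.47 and 3.87 in control wounds. Intact skin had 2.85, 0.83, 1.64 and 2.87 in HFD fish and 1.48, 3.13, 1.55 and 1.09 in control fish. All HFD wounds and all control wounds but the lowest exceeded every intact sample, with a difference of 1.57 (SE 0.34, limma adjusted p = 0.000692). Mx was higher on all 5 days from 7 dpw, by 1.57, 1.63, 0.76, 1.00 and 1.32. Mx1 rose as early as 3 dpw, by 0.92 (SE 0.36, limma adjusted p = 0.0338), where it had 4.16, 1.64, 2.57, 2.61 and 2.50 in HFD wounds and 1.36, 1.34, 2.00, 1.72 and 0.74 in control wounds, against 2.24, 0.79, 0.65 and 1.92 in HFD intact skin and 0.16, 2.38, 0.83 and 0.16 in control intact skin. The control wounds of 3 dpw thus lay inside the range of intact skin, while all HFD wounds but the lowest lay above it. Mx1 was at 1.77 and 1.78 above intact skin at 7 and 14 dpw and at 0.90 at 57 dpw. Mx3 was higher at 7, 14, 43 and 57 dpw, by 1.02, 1.03, 0.77 and 0.91. At 7 dpw Mx3 had 3.34, 3.31, 3.41, 3.06 and 3.47 in HFD wounds and 4.30, 3.21, 3.39, 2.30 and 3.33 in control wounds, against 3.20, 0.99, 2.29 and 3.13 in HFD intact skin and 1.88, 3.13, 2.18 and 1.51 in control intact skin. The wounds of HFD fish lay closer together than those of control fish on that day in all 3 Mx probes. Near-identical copies of Mx genes occur in salmon, and signal from one copy on the probe of another cannot be separated here.

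Viperin, an enzyme that makes a nucleotide which ends viral RNA chains, passed the test at 1 dpw in all its probes. The 3 probes, viperin A and viperin B from salmon and another designed on rainbow trout, were higher at 1 dpw by 1.39, 1.36 and 1.39 (limma adjusted p of 0.0141, 0.0157 and 0.0171). With the slide as a block the differences were 1.43, 1.50 and 1.55 and none passed (limma adjusted p of 0.138, 0.129 and 0.141). At 3 dpw the trout probe alone passed, with 1.04 (SE 0.44, limma adjusted p = 0.0482). On that day the trout probe had a scaled signal of 2.56, -0.45, 1.49, 0.59 and 0.63 in HFD wounds and -1.82, -1.05, -0.11, -0.37 and -1.32 in control wounds, against -0.36, -1.93, -0.87 and 0.93 in HFD intact skin and -1.25, -0.42, -1.48 and -2.85 in control intact skin. The control wounds thus lay inside the range of intact skin, while 2 HFD wounds lay above it. The level was highest at 7 dpw, where the trout probe had 2.34, 1.79, 1.45, 1.32 and 1.56 in HFD wounds and 2.04, 0.01, 0.70, -0.81 and 0.63 in control wounds, a difference of 2.13 (SE 0.41, limma adjusted p = 0.000291).

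On the same day viperin A had 0.12, -0.54, -0.71, -0.81 and -0.57 in HFD wounds and 0.41, -2.01, -1.31, -2.87 and -1.45 in control wounds, against -2.13, -3.04, -2.70 and -0.90 in HFD intact skin and -3.21, -2.26, -3.46 and -4.79 in control intact skin. Viperin B had 3.12, 2.64, 1.92, 2.20 and 2.44 in HFD wounds and 2.89, 0.88, 1.60, -0.02 and 1.55 in control wounds, against 0.48, -1.14, 0.10 and 1.83 in HFD intact skin and -0.42, 0.57, -0.52 and -1.77 in control intact skin. In all 3 probes the same control fish was highest, and control fish 4 was lowest, within the range of intact skin. The differences of viperin A and B were 1.84 and 2.03 at 7 dpw and 1.51 and 1.86 at 14 dpw. They were 0.88 and 1.15 at 57 dpw, when the trout probe had 0.49 and did not pass. Viperin B passed at 43 dpw also, with 1.02. The spot of viperin B on the array of HFD fish 1 at 3 dpw was marked as an outlier by the scanner software and was left out.

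Cholesterol 25-hydroxylase A (CH25H-A), an enzyme whose oxysterol product hinders the entry of enveloped viruses and is also made in inflammation in mammals, had a course of its own. Its scaled signal at 1 dpw was 1.53, 0.92, 1.70, 1.17 and 1.83 in HFD wounds and 2.06, 1.98, 1.67, 2.22 and 1.62 in control wounds, against -2.10, -2.0, -1.38 and -0.24 in HFD intact skin and -0.17, -2.74, -2.58 and -1.80 in control intact skin. No wound overlapped with intact skin, and the difference of 3.30 (SE 0.32, limma adjusted p = 2.32e-07) was the largest of any member on that day. At 3 dpw it had 1.24, 0.72, 0.28, 0.28 and 0.73 in HFD wounds and -1.04, 0.57, 0.82, 0.13 and 0.76 in control wounds, a difference of 2.08 (SE 0.36, limma adjusted p = 9.01e-05). It stood at 1.46 and 1.32 above intact skin at 7 and 14 dpw, and the differences of -0.34, -0.20 and -0.16 at 36, 43 and 57 dpw did not pass. CH25H-A was therefore highest on the day after wounding, when most other members were near their intact level.

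Among the remaining effectors the day of the largest difference varied. The Gig2 proteins were first found in crucian carp cells exposed to virus and are known from fish. Of the 5 Gig2 probes, Gig2, Gig2-2, Gig2-4 and Gig2-7 were higher at 7 dpw, by 1.10 to 1.59, and at 14 dpw, by 1.41 to 2.25. Gig2 stayed higher at 36, 43 and 57 dpw by 1.10, 1.05 and 1.32, whereas Gig2-2 and Gig2-4, with 0.38 to 0.66, did not pass on these days. Gig1-1 was higher by 0.94 at both 7 and 14 dpw and by 0.64 at 57 dpw. None of the probes named after viral haemorrhagic septicaemia virus (VHSV) passed as higher before 14 dpw. Their levels at 7 and 14 dpw could not be set apart. VHSV-induced protein and VHSV-induced protein-1 passed at 14 dpw only, with 0.83 and 0.88. VHSV-inducible protein-3 was lower at 3 dpw by 0.90 and higher by 1.19 at 14 dpw, 1.34 at 43 dpw and 1.68 at 57 dpw, the largest difference of any member that was higher on that last day (limma adjusted p = 0.000667). The spot of VHSV-induced protein-1 was left out for 1 HFD fish at 14 dpw, having been marked as an outlier.

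IFIT5-2, whose mammalian counterpart binds viral RNA, was higher at 7, 14, 43 and 57 dpw, by 1.79, 1.88, 1.38 and 1.48. The probes of both virus-induced TRIM proteins, ubiquitin ligases of fish, passed from 14 dpw on, with 0.96 and 0.94 at 14 dpw and 1.03 and 1.12 at 36 dpw, and only the B probe passed at 57 dpw. RTP3, named as a receptor transporting protein, was limited to the second week. It was higher by 2.06 at 7 dpw and 1.50 at 14 dpw, and its differences of -0.48, -0.64 and -0.90 at the late days did not pass. Thymidylate kinase, an enzyme of nucleotide supply, and Galectin-9, a lectin that binds carbohydrates, were higher on all 5 days from 7 dpw, by 0.98 to 1.45 and by 0.70 to 1.14. Among the others ApoL3, an apolipoprotein L, was higher by 0.83, 0.98 and 0.67 at 3, 7 and 14 dpw and then between -0.05 and 0.30. The helicase PRIC285-2 and the ubiquitin ligase RNF213 were higher from 7 to 43 dpw, while XAF1 and the unnamed probe passed at 7 and 14 dpw, and the hect-type ubiquitin ligase passed at 14 dpw with 0.90.

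In 2 effectors fish of the same group lay far apart. Gig2-3 passed on no day, although its differences from intact skin spanned -2.03 to 1.54. Its scaled signal at 1 dpw was -4.47, -5.38, -3.18, 1.55 and -4.53 in HFD wounds and -0.20, 3.75, 1.38, 2.12 and 1.01 in control wounds. In intact skin it was 2.06, 0.57, 0.61 and 1.94 in HFD fish and 0.91, 3.18, -3.61 and 0.54 in control fish. The HFD wounds thus held 1 fish at the level of intact skin and 4 far below it, and control intact skin held 1 fish far below the other 3. IFN-induced 44 was alike in this respect, with -3.45, -0.64, -3.64 and -2.58 in HFD intact skin and -0.71, -0.12, -0.72 and -2.88 in control intact skin, and it passed on no day either. The cause of these separate levels was not tested.

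Of the 5 other members 3 were lower and 1 was higher at 3 dpw. Gelsolin, a protein that cuts actin filaments, had the largest fall. Its scaled signal at 3 dpw was -1.23, -1.34, -1.58, -1.63 and -1.20 in HFD wounds and -1.28, -0.67, -1.08, -0.85 and -1.52 in control wounds, against 0.30, 0.11, 0.32 and 0.24 in HFD intact skin and 1.06, 0.03, 0.24 and 0.35 in control intact skin. The groups did not overlap and the difference was -1.57 (SE 0.14, limma adjusted p = 9.51e-08). It was already lower at 1 dpw, by 1.03, and lower at 7 dpw by 0.69, and at 57 dpw it was higher by 0.43 (limma adjusted p = 0.0255).

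Mucin 5AC is the name of a gel-forming mucin of mucous cells. At 3 dpw the probe of this name had 7.09, 5.80, 5.98, 6.25 and 6.17 in HFD wounds. Control wounds had 5.04, 5.16, 5.36, 5.24 and 4.80. Intact skin had 5.17, 3.56, 4.37 and 5.43 in HFD fish and 4.33, 5.90 and 3.72 in 3 control fish, the spot of control intact fish 7 having been marked as an outlier. The difference of 1.05 (SE 0.31, limma adjusted p = 0.00734) came with control wounds inside the range of intact skin. At 7 dpw the wounds lay between 6.72 and 7.14 in HFD fish and between 6.43 and 7.18 in control fish. All of them exceeded every intact sample, and the difference was 2.20 (SE 0.29, limma adjusted p = 1.01e-05). By qPCR, the paper reports a mucin gene of this name as lower in HFD fish on most days. It reports no effect of density on a further gene of this name. Which of these genes the probe measures was not tested. The higher values of the probe in HFD wounds at 3 dpw therefore cannot be read as a rise of either gene. BAF B, a probe for a small protein that binds DNA at the nuclear envelope, was lower at 3 dpw by 0.94 (SE 0.39, limma adjusted p = 0.0443), with 3.52, 2.98, 3.87, 2.21 and 4.91 in HFD wounds and 1.68, 2.56, 2.46, 1.62 and 2.71 in control wounds, against 5.08, 2.37, 3.63 and 4.58 in HFD intact skin and 4.23, 4.41, 3.33 and 2.74 in control intact skin. Of the HFD wounds 4 lay in the range of intact skin, and the 2 lowest values were those of control wounds. Both BAF probes were lower at 3 dpw and higher at 14 dpw, BAF A by 0.82 and 0.91 and BAF B by 0.94 and 1.35.

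**Figure D2:**
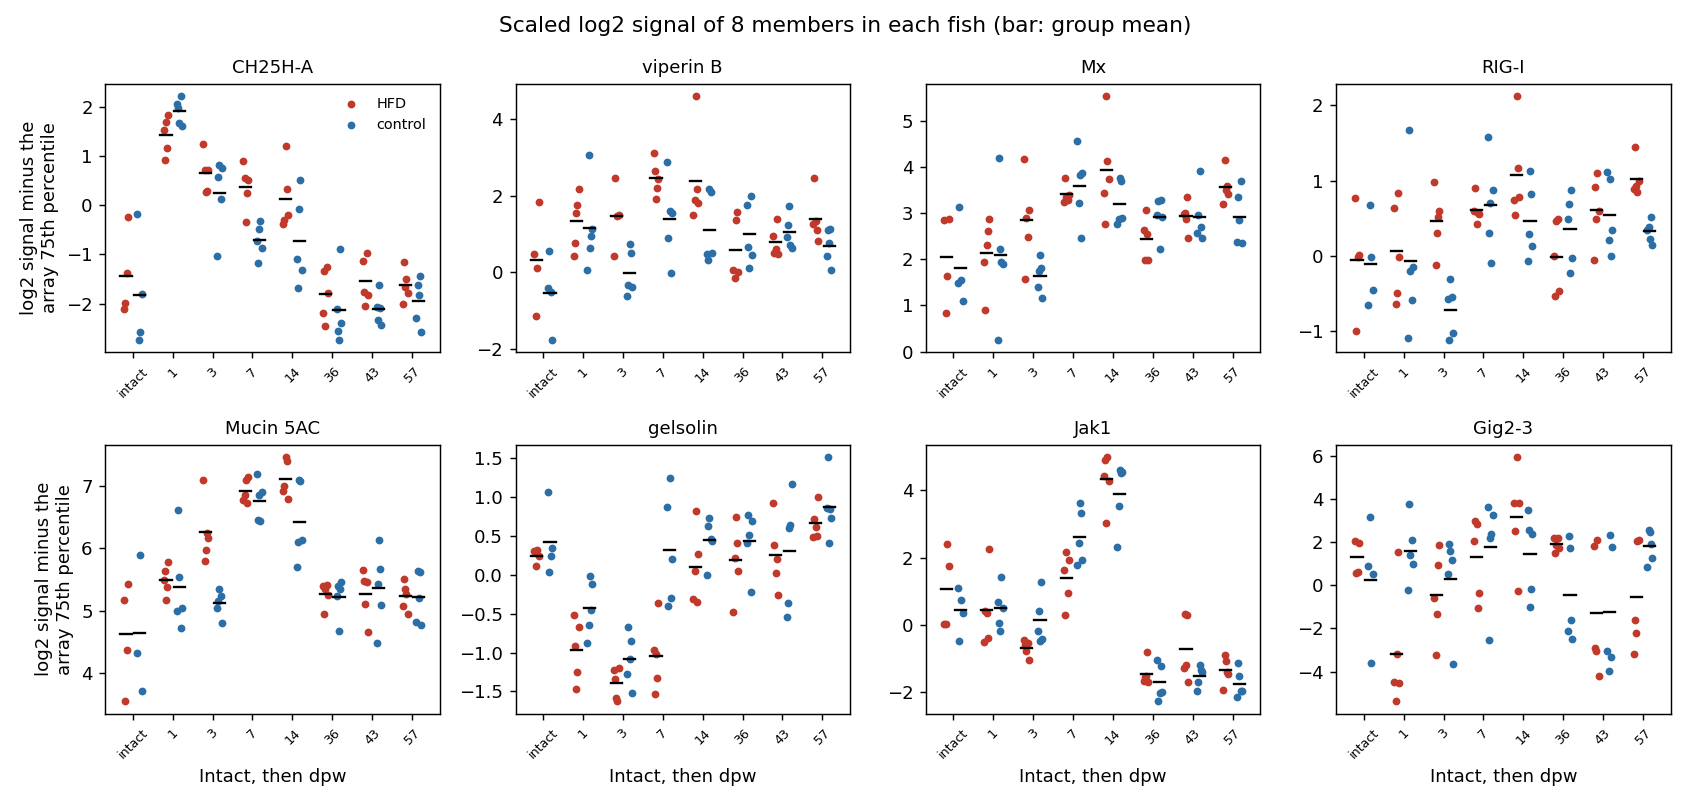
Scaled log2 signal (vertical axis, log2 signal minus the array's 75th percentile) of 8 members in every fish by density, for intact skin and 1 to 57 dpw, with bars for group means. CH25H-A is highest at 1 dpw with group means of 1.43 in HFD wounds and 1.91 in control wounds, and Jak1 is highest at 14 dpw with 4.33 in HFD wounds and 3.90 in control wounds.

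As the mean of both densities, the members moved between successive samplings mainly in the step to 7 dpw. The densities differed in this. In HFD wounds the group mean over the members, as log2 minus the mean of intact skin, was 0.28, 0.61, 1.05 and 1.64 at 1, 3, 7 and 14 dpw. In control wounds it was 0.44, -0.36, 1.08 and 0.99. The steps were not tested by density. The wounds of 3 dpw differed from those of 1 dpw in 2 members, against 42.1% of all probes (22.3% higher, 19.8% lower), and both were lower. These were CH25H-A with -1.22 (SE 0.21, limma adjusted p = 0.000176) and gelsolin with -0.55. From 3 to 7 dpw 28 members rose and 1 fell, while 33.6% of all probes differed, 16% higher and 17.6% lower. The median of the members was 0.97, against -0.027 over all probes, and 36 members were above 0. The largest rises among the members that passed were those of Jak1 with 2.28, thymidylate kinase with 1.58, RTP3 with 1.54 and BAF B with 1.48, and the member that fell was CH25H-A, by 0.62. With the slide as a block 9 members passed in this step, all higher, with a median of 0.75, where 21.9% of all probes passed and 10.6% were higher.

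From 7 to 14 dpw Jak1 was the single member that differed, by 2.11 (SE 0.36, limma adjusted p = 0.000937), against 13.8% of all probes (7.28% higher, 6.52% lower). The levels of the other 37 members at 14 dpw could not be set apart from those at 7 dpw, and the median difference was 0.10. Over the late period, 57 dpw against 36 dpw, VHSV-inducible protein-3 rose by 1.06 (SE 0.25, limma adjusted p = 0.0217), where 4.16% of all probes differed, 0.97% higher and 3.19% lower. The count in the first of these steps, 3 dpw against 1 dpw, was 4 without control fish 2 of 1 dpw (42.5% of all probes). In the step from 7 to 14 dpw it was 3 without control fish 1 of 7 dpw (12%). It was 2 without HFD fish 5 (12%) or control fish 3 (14.3%) of 7 dpw. It was also 2 without HFD fish 2 (11.3%), HFD fish 4 (16.8%) or control fish 5 (10.8%) of 14 dpw. In the late step it was 2 without control fish 4 of 36 dpw (2.84%).

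The mean over the members in each fish, as log2 minus the mean of intact skin, shows how far single fish differed. In intact skin it was 0.77, -0.76, -0.13 and 0.79 in HFD fish and -0.32, 0.71, -0.29 and -0.77 in control fish, a range as wide as many of the differences above. At 1 dpw it was 0.02, -0.51, 0.36, 0.81 and 0.72 in HFD wounds and -0.54, 1.88, 0.32, 0.22 and 0.33 in control wounds, where control fish 2 stood apart at the top. Fish numbers at 1 dpw are those of the scanner files, and in the value table of the authors only 2 of the 10 columns of that day matched the array of the same number best, although all 10 matched an array of their own group. At 7 dpw the HFD wounds had 1.09, 1.25, 0.98, 0.86 and 1.04, which is above every intact fish, and the control wounds had 2.11, 0.71, 1.22, 0.20 and 1.18. At 14 dpw the HFD wounds had 1.22, 0.91, 2.94, 1.77 and 1.35 and the control wounds 0.56, 0.79, 1.62, 1.38 and 0.58. All HFD wounds were above every intact fish on that day, while 3 control wounds were within the intact range. The highest value of all 78 fish was that of HFD fish 3 at 14 dpw. By group, the mean ± SD was 1.05 ± 0.14 in HFD wounds and 1.08 ± 0.71 in control wounds at 7 dpw, 1.64 ± 0.79 in HFD wounds and 0.99 ± 0.49 in control wounds at 14 dpw, and 0.78 ± 0.34 in HFD wounds and 0.32 ± 0.43 in control wounds at 57 dpw (n = 5 each).

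**Figure D3:**
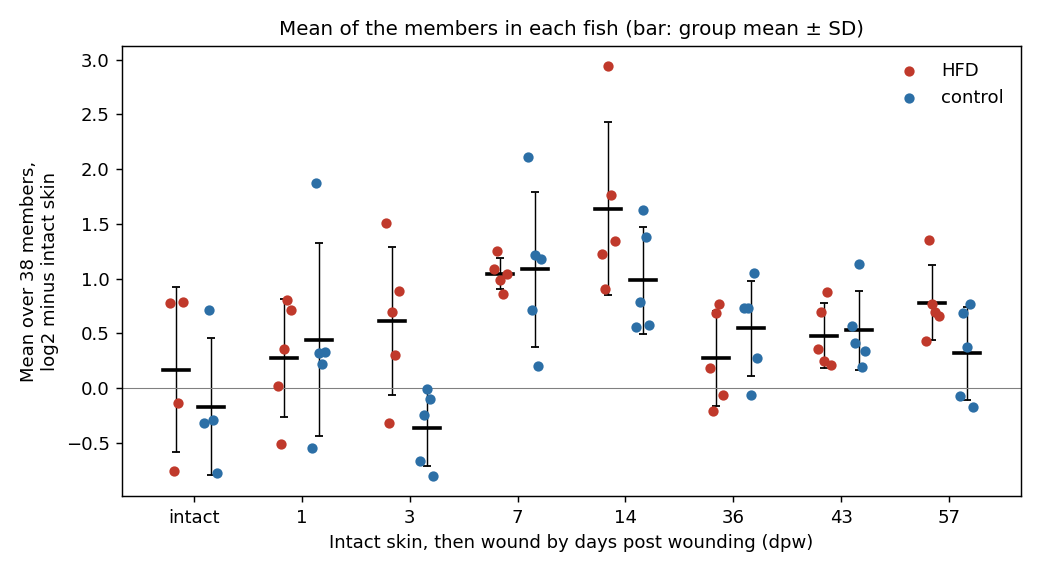
Mean over the 38 members in every fish (vertical axis, log2 minus the mean of intact skin) by density, for intact skin and 1 to 57 dpw, with bars for the group mean ± SD. The intact fish span -0.77 to 0.79, and the 5 HFD wounds of 7 dpw lie between 0.86 and 1.25.

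Within groups the members went up and down together from fish to fish. For each probe the deviation of every fish from the mean of its group was taken, and these deviations were correlated over the 78 fish. Over the 703 pairs of members the median Pearson r was 0.66, with 91.3% of pairs above 0 and 65.7% above 0.5. Against the mean of the other members, 32 of the 38 had r above 0.5 and 23 had r above 0.8, led by Mx with 0.96, the unnamed probe with 0.95 and Mx3 with 0.93. The 6 with lower values were CH25H-A (0.34), Gig2-3 (0.26), gelsolin (0.21), IFN-induced 44 (0.11), Jak1 (-0.03) and Ras-related GTP binding C (-0.25). In the fish of 36 to 57 dpw alone Jak1 had 0.58 and CH25H-A 0.57, against -0.17 and 0.27 in the fish of intact skin and 1 to 14 dpw. Gig2-3, gelsolin, IFN-induced 44 and Ras-related GTP binding C lay between -0.14 and 0.13 in the late fish. Jak1, CH25H-A and gelsolin also had time courses unlike most members. The median r was 0.74 in the 48 fish of intact skin and 1 to 14 dpw and 0.48 in the 30 fish of 36 to 57 dpw, and it was 0.67 after slide means were removed. All members of a fish share 1 array, its RNA and its scaling, which the correlations therefore include.

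The control fish of 57 dpw with a repeat was hybridised to 2 arrays of the same slide. Of the 37 members measured on both, 33 were higher on the first array, by a median of 0.57, while the other probes had a median difference of -0.09 with 43.8% higher. The members thus moved together between 2 measurements of the same fish, too, and the part of the array in the correlations was not tested. The log2 differences of the other probes between these arrays had an SD of 0.75, and the arrays had a Pearson r of 0.97 over probes. Among 11571 other probes 196 (1.69%) had r above 0.5 with the mean of the members, and their median r was -0.047. The 10 most alike had r between 0.896 and 0.93. Of these 9 have no name in the tables used here, led by probe Ssa#S50837444 with 0.93, and the other was the NFX1-type zinc finger containing protein with 0.93, which the list files under antigen presentation.

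**Figure D4:**
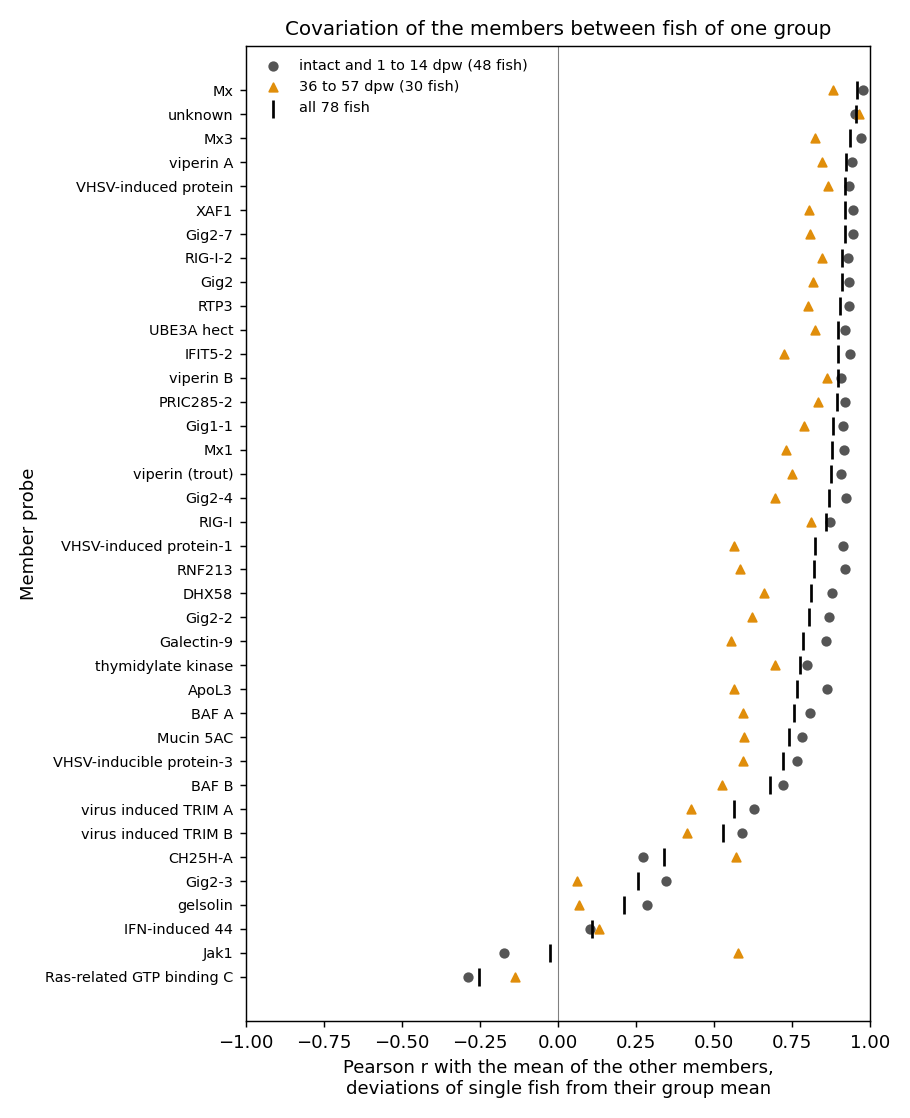
Pearson r of each member with the mean of the other members (horizontal axis), from deviations of single fish from their group mean, for all 78 fish (bars), the 48 fish of intact skin and 1 to 14 dpw (circles) and the 30 fish of 36 to 57 dpw (triangles). Mx reaches 0.96 over all fish, while Jak1 lies at -0.03 and Ras-related GTP binding C at -0.25. In the fish of 36 to 57 dpw Jak1 lies at 0.58.

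The fold changes of the list were not used, so the day that put a probe on it is not given here. In the values used here more members met the criteria of the study at 3 dpw than on any other day. On that day 27 members met the criteria of the study (26 higher in HFD wounds, 1 lower), where 6.4% of all probes did (3.38% higher, 3.01% lower), which follows from the choice of the members. The median of HFD minus control was 1.12, and 34 of 38 members were above 0. Thymidylate kinase had the largest difference with 2.02. Its scaled signal was -0.26, -2.94, -1.73, -2.63 and -1.81 in HFD wounds and -3.31, -4.63, -3.27, -4.13 and -4.13 in control wounds, without overlap. With it 8 members did not overlap between densities, where 5.69% of all probes did not, which again follows from the choice of the members. The other 7 were XAF1, RNF213, RIG-I-2, DHX58, Mucin 5AC, RIG-I and ApoL3. The 4 members below 0 were Jak1, which had -0.81 and met the criteria, Gig2-3, IFN-induced 44 and gelsolin. For RIG-I the wounds had 0.98, -0.12, 0.31, 0.52 and 0.60 in HFD fish and -0.57, -1.12, -0.31, -0.55 and -1.03 in control fish.

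Set against intact skin of their own density, the median of the members at 3 dpw was 0.54 in HFD wounds, with 29 above 0, and -0.20 in control wounds, with 12 above 0. No slide held wounds of that day and intact skin of the same density, so that slide and wound cannot be told apart in these medians. The mean over members was 1.51, -0.32, 0.70, 0.30 and 0.88 in HFD wounds and -0.67, -0.24, -0.0070, -0.098 and -0.80 in control wounds, so that HFD fish 2 was within the range of the control fish and the other 4 above it. Only slide 6 held wounds of both densities at 3 dpw, 1 fish of each, with a median of HFD minus control of 2.35, and with the slide as a block in the fit of all fish the median was 2.32. These 2 fish were HFD fish 1, which had the highest mean over members of the HFD wounds, and control fish 5, which had the lowest of the control wounds.

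On each of the other days fewer members met the criteria. Some members still had their largest difference on such a day, among them Gig2-3 with -4.81 at 1 dpw and IFN-induced 44 with 2.89 at 14 dpw. In intact skin 0 members met the criteria, against 1.81% of all probes, although 32 members were above 0 with a median of 0.29. No slide held intact skin of both densities, so that slide and density cannot be told apart there. The single member at 1 dpw was lower in HFD wounds (3.45% of all probes met the criteria, 2.8% lower). At 7 dpw 3 members were higher and 2 lower in HFD wounds (4.34%, of which 1.56% higher and 2.78% lower). It was 2 members on the day of 14 dpw (4.29%), 1 member at 36 dpw (1.19%) and 0 members at 43 dpw (3.78%). The median difference was 0.53 at 14 dpw with 35 members above 0, and it was -0.34 at 36 dpw with 6 members above 0. At 57 dpw 10 members were higher and 1 was lower in HFD wounds, where 1.8% of all probes met the criteria (1.49% higher, 0.307% lower), the median was 0.49 and 33 members were above 0. The lower member was Gig2-3 with -2.37, the largest of that day in size among the members, and the higher ones were led by Gig2-2 with 1.71, Gig2-4 with 1.50 and both virus-induced TRIM probes with 1.42 and 1.36. Within the 3 slides that held both densities at 57 dpw the median was 0.29, 0.29 and 0.64. At 7 dpw the opposite signs were mixed, with Jak1 at -1.21, gelsolin at -1.37 and CH25H-A at 1.09.

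**Figure D5:**
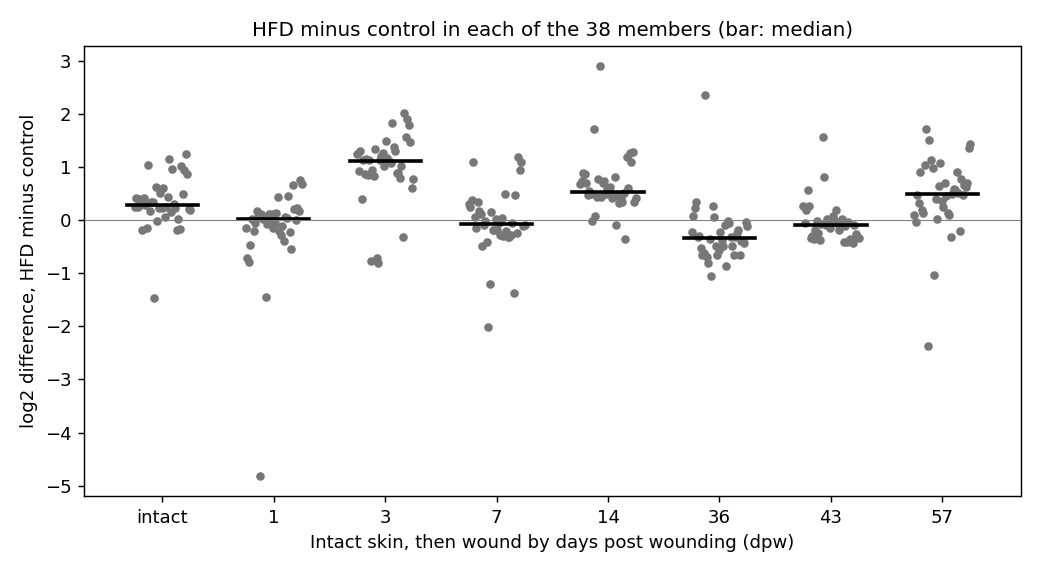
Log2 difference of HFD minus control (vertical axis) for each of the 38 members (points) in intact skin and at 1 to 57 dpw, with bars for the median. At 3 dpw the median is 1.12 with 34 members above 0, and at 36 dpw it is -0.34 with 6 above 0.

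Names of probes were taken from the supplementary list alone, so that other probes of the pathway on the array could not be sought. Among the probes of that list outside the members, 3 carry an interferon or virus-induced TRIM name. The putative alpha chain of the interferon alpha/beta receptor (Ssa#EG838353) was lower at 1 dpw by 1.43 (limma adjusted p = 0.000696) and higher at 7 and 14 dpw by 1.05 and 0.72. A virus-induced TRIM probe (Ssa#S35697379) was lower at 3 dpw by 0.69, and TRIM-7 (Ssa#S48413956) was higher at 1 dpw by 0.67. At 36 dpw both were lower, by 0.43 and 0.72 (limma adjusted p of 0.0468 and 0.00679). The receptor chain thus first passed as higher at 7 dpw. By density its difference on that day was 1.24 in control wounds and 0.85 in HFD wounds, and HFD minus control was -0.43 (SE 0.45). No slide held wounds of that day and intact skin of the same density. At 14 dpw the difference of the receptor chain was 1.44 in HFD wounds and 0.0026 in control wounds. These differences by density are a description without a test, since the probe was listed for a difference between densities. Inside groups its r with the mean of the members was 0.0051.

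The other immune probes of the list kept another time course. Of the 174 such probes, 91 were higher and 37 lower at 1 dpw, where 20.4% of all probes were higher and 35.8% lower. At 3 dpw 100 were higher and 34 lower, where 25.9% of all probes were higher and 40.4% lower. Their medians were 1.05 and 1.35 on these days, when the medians of the interferon and virus response probes were 0.36 and 0.14. At 7 and 14 dpw the medians were 1.10 and 0.93, near those of the 38 members, and at 57 dpw it was 0.23, against 0.59 in the members. Both lists were chosen by the study for density differences in these fish. Acute phase probes had a median of 2.49 at 3 dpw, and DNA replication probes had -1.20 at 1 dpw, -0.076 at 3 dpw and 0.87 at 7 dpw.

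Markers of other cells were counted in the same way. Of all probes 56.2%, 66.3%, 61.8% and 60.3% differed from intact skin at 1, 3, 7 and 14 dpw. The shares higher were 20.4%, 25.9%, 24.4% and 24.3%. At 57 dpw 54.7% differed and 19.8% were higher. Marker counts near these shares are no result about a cell type. All markers used were seen on some array. Of 8 T cell probes 5 were higher and 2 lower at 3 dpw, 6 were higher and 1 lower at 7 dpw, and 6 were higher at 14 dpw. The summed T cell level, as log2, lay at 5.60 to 6.30 in HFD wounds and 5.11 to 6.03 in control wounds at 3 dpw, and at 4.36 to 5.31 in HFD wounds and 4.44 to 5.21 in control wounds at 7 dpw, against 3.00 to 4.42 in HFD intact skin and 3.49 to 3.69 in control intact skin. The group median of this sum was highest at 3 dpw in both densities. Of 5 blood probes 4 were higher on each day from 1 to 14 dpw and the other was lower at 1, 3 and 7 dpw, and 16 of 17 immunoglobulin probes were higher at 57 dpw with a median of 2.10. Of 9 muscle probes 5 were lower and 1 higher at 3 dpw, and 6 lower and 1 higher at 7 dpw with a median of -1.40. Of 8 epidermal probes 5 were higher and 3 lower at 3 dpw with a median of 1.10, and 3 were higher and 2 lower at 7 dpw with a median of 0.11. Inside groups the mean over the members had r of 0.23 with the T cell sum, 0.17 with the epidermal sum, -0.03 with the immunoglobulin sum, -0.04 with the blood sum and -0.19 with the muscle sum, over 78 fish. The part of these cell types in the course of the members was not tested.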

How the data were processed

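Skin of 78 fish was measured on 79 arrays of 1 colour. The authors deposited the scanner intensity of each array as written by Feature Extraction 12.0.1.1, in which the processed signal has its background subtracted and is not normalized between arrays. A value table that they also deposited holds intensity values scaled to a common total per array and was used as an alternative. The labels and the methods name different RNA kits. From the intensities the 536 control spots and spots marked as feature outliers were left out, log2 was taken and the 75th percentile of the array over 14841 probes was subtracted. A probe entered a test if it was well above background in at least as many fish as the smaller side of the comparison held. In the comparisons with intact skin over both densities, that side was all intact fish of both densities. Per day, HFD wounds, control wounds and both groups of intact skin were fitted with limma 3.58.1 in R 4.3.3 (lmFit, eBayes), and the mean wound minus mean intact skin was tested, with Benjamini-Hochberg adjustment over all tested probes and a threshold of 0.05. Differences between days were fitted likewise. The fits were tested on simulated data.

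The members and lists were chosen with earlier results of these data known. The supplementary list gave names, categories and identifiers, and its columns of fold changes were not used. Probes were named by role group, with the value in every fish for the 3 largest rises and falls at 3 dpw and for Mx, viperin and RIG-I. Gig2-3, IFN-induced 44 and thymidylate kinase were added after their values were seen. Alternatives changed the scaling, background correction, filters, fish, density and slide block. No sequence of a probe was printed. The number of arrays limits the precision.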

Additional observations from a re-analysis of the deposited data

Results flagged for a closer look

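In 223 groups of 4 or 5 fish examined for the probes named above, 10 held a fish far from the others, and chance gives about 1 in 20 groups. Mucin 5AC had 4.68 in control fish 3 at 36 dpw, below the rest. Viperin (trout) had 3.87 and viperin B 4.60 in HFD fish 3 at 14 dpw, above the rest, the fish with the highest mean over the members. Viperin (trout) had 0.22 in HFD fish 4 at 43 dpw, above the rest, and Jak1 had -0.79 in HFD fish 4 at 36 dpw, above the rest. Viperin A had 0.12 in HFD fish 1 at 7 dpw, -0.70 in HFD fish 2 at 57 dpw, both above the rest, and -3.22 in control fish 5 at 57 dpw, below the rest. RIG-I had 1.44 and RIG-I-2 had 2.03 in HFD fish 2 at 57 dpw, above the rest. All values are scaled log2 signals. No member had every HFD wound on one side and every control wound on the other side of intact skin in the 273 combinations examined, of a day with a member or with the mean over members,.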

How the results depend on the processing

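The number of members that passed against intact skin depended on the fit. In the main fit it was 5, 10, 26 and 35 at 1, 3, 7 and 14 dpw, and 10, 16 and 18 at 36, 43 and 57 dpw. With the slide as a fixed block it was 2, 4, 9 and 3 at 1 to 14 dpw, against 33%, 56.4%, 50.2% and 35.1% of all probes, and the block could not be fitted from 36 dpw because no late slide held intact skin. In the step from 3 to 7 dpw it was 9 (21.9%) and in the step from 36 to 57 dpw 0 (3.35%) with that block. With the values tabulated by the authors, 14 passed at 1 dpw, where 45.3% of all probes did. On each of 36, 43 and 57 dpw 35 passed, against 81.3%, 79.4% and 80.6% of all probes. Of all probes 74.8%, 74.3% and 75.3% were higher on these days. With these values the median of all probes moved to between 0.01 and 0.96, against -0.25 to -0.15. The columns of 36 to 57 dpw held 0 to 390 blank values each in that table, and those of the earlier days 466 to 3607. Early and late columns were therefore not alike in it. In HFD fish alone 3, 6, 15, 15, 1, 0 and 9 passed, against 33.3%, 53.4%, 46%, 44.2%, 45.7%, 35.2% and 34% of all probes. In control fish alone 16, 17, 8 and 2 passed at 7, 14, 43 and 57 dpw, against 45.8%, 38.3%, 27.2% and 33.5%. The members were listed for differences between the densities, and that choice bears on the wounds of a single density. The counts by density are therefore a description and cannot be set against each other. Within a density no slide held both intact skin and wounds of 3, 7, 36, 43 or 57 dpw. Slide and wound cannot be told apart in those comparisons. On 7 and 14 dpw the members that passed in each density were higher but for 1, against 18% and 17.7% of all probes higher in HFD fish and 19.4% and 15.9% in control fish. All 16 groups in a single fit gave 12 at 1 dpw (55.7% of all probes), and normexp gave 6 at 36 dpw (45.3%). Leaving out the fish on the dimmest slide gave 7 at 57 dpw (43%). The fish number does not pair the fish: over 35 pairs of the same number the deviations had a median r of -0.04 (range -0.58 to 0.41), and 8 of 35 HFD fish were most like the control fish of their own number. With it as a replicate block 2, 5, 18, 5, 4 and 8 members passed at 1, 3, 14, 36, 43 and 57 dpw. Of all probes 32%, 46.8%, 38.8%, 41.5%, 15.9% and 23.7% passed on these days. In the step from 7 to 14 dpw 2 members passed with this block (12.5% of all probes). Leaving out single fish gave 5 to 9 members at 1 dpw, 6 to 10 at 3 dpw, 25 to 31 at 7 dpw, 27 to 35 at 14 dpw, 6 to 17 at 36 dpw, 13 to 23 at 43 dpw and 13 to 23 at 57 dpw. It gave 2 to 4 from 1 to 3 dpw, 26 to 32 from 3 to 7 dpw, 1 to 3 from 7 to 14 dpw and 1 to 2 from 36 to 57 dpw, and a median HFD minus control at 3 dpw of 0.88 to 1.29. That median was 2.32 with the slide block and 2.35 on slide 6 alone, which held the highest HFD and the lowest control fish of that day. For the named members 1307 of 1516 values under alternatives kept direction and threshold, 209 kept the direction only and 0 were reversed. Refits without a single fish gave 815 that kept both and 85 that kept the direction only. With the slide as a fixed block it was 15 and 20. In HFD fish alone it was 27 and 23, and in control fish alone 25 and 25. The fish number as a block gave 26 and 24, and leaving out the fish on the dimmest slide 5 and 10. With quantile normalization it was 49 and 1, and with normexp 41 and 9. The 1516 values belong to 50 results that had passed in the main fit, so that reversals were unlikely from the start. Over all members the direction at 3 dpw did depend on the fit. The median was 0.14 with 25 members above 0 in the main fit and -0.072 with 16 above 0 with the slide block. The causes were not tested.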
